A study of Mus musculus with 9 samples.

Results

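Limb identity transcription factors were followed in RNA from mouse knee joints through 10 genes: Pitx1, Tbx4, Tbx5, Tbx2, Tbx3, Tbx15, Tbx18, Prrx1, Shox2 and Lmx1b. They were taken by name, through the Ensembl ID of each symbol, from the 53379 gene IDs of the count tables, and all 10 were among the 17478 genes with enough reads to be tested. The 9 libraries fell into 3 groups of 3. Luc and PC2 joints came from male C57BL/6 mice whose anterior cruciate ligament was transected (ACLT, a surgical model of osteoarthritis) at 8 weeks of age. These joints received a lentivirus expressing Luc or PC2 into the joint 1 week later and were collected 8 weeks after the virus. Non surgery joints had no such operation, and the sources used here do not give their age at collection or whether they received a virus. RNA within a group was mixed before sequencing and the 3 libraries of a group were technical repeats, so each group was 1 pool and every p-value below measured technical spread only. Differences between groups and differences between the mice that made up the pools cannot be told apart, nor can surgery and virus in Luc against Non surgery.

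These genes encode DNA-binding proteins that give the embryonic limb its position and axes. Pitx1 and Tbx4 act in the hindlimb bud and Tbx5 in the forelimb bud, while Tbx2 and Tbx3 act at the limb margins in digit patterning. Tbx15 and Tbx18 are close relatives used in skeletal and dermal mesenchyme, Prrx1 marks limb bud mesenchyme, Shox2 acts in the proximal limb skeleton and Lmx1b sets dorsal identity, including the kneecap. Several stay on in adult connective tissue of the limb, and Tbx15 is also known from fast, glycolytic muscle fibres.

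Gene counts summed to between 17835989 and 19004316 per library. Of 12 cell type marker lists, those of cartilage, bone, fibroblasts and synovium, tendon, fat, muscle and red blood cells had no gene at 0 in any group, and the 8 keratinocyte markers summed to 4.86 to 9.55 CPM (read counts scaled to library size, with TMM factors). The lists moved between groups. All 12 cartilage, all 12 bone and all 7 tendon cell markers rose in Luc against Non surgery, with median log2 fold changes of 2.32, 1.55 and 1.95. Summed, the cartilage list was at 809 to 907 CPM in Non surgery and 4900 to 4995 in Luc, the bone list at 3657 to 4029 and 13408 to 13979, and the tendon cell list at 551 to 634 and 2184 to 2216. Col1a1 made up most of the bone sum, with means of 3086 CPM in Non surgery (mean sum 3827) and 11455 in Luc (mean sum 13706). All 14 fibroblast and synovium markers rose in Luc against Non surgery, with a median log2 fold change of 1.89, and their summed level was 6800 to 7453 CPM in Non surgery, 27401 to 27895 in Luc and 28828 to 29309 in the PC2 libraries. The 12 fast muscle markers all fell, with a median of -1.20, and summed to 69677 to 71955, 28353 to 28867 and 32926 to 33054 CPM. In bulk tissue, fewer cells of a type and less RNA per cell cannot be told apart, and the part of these lists in the results below was not tested.

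Upstream sequences are shown for Prrx1, Lmx1b and Shox2, which all rose in Luc against Non surgery and then differed in their calls in PC2 against Luc (Prrx1 fell, Shox2 rose, and Lmx1b did not pass the test). Pitx1, the other homeobox gene of the set, rose in both comparisons and had no entry in the table of upstream sequences used here. The sequences are from RefSeq (GRCm38.p6) and printed 5′ to 3′ on the strand of the gene. Those of Lmx1b and Shox2 end at the base before the RefSeq start, whereas that of Prrx1 holds 190 of the 250 upstream bases and ends at the base before its GENCODE start, short of the RefSeq start at position 163313650. Prrx1 is at chr1:163313711-163313900, minus strand, with the homeodomain core TAATTA in capitals, its first base 173 bases before the RefSeq start. Lmx1b is at chr2:33641099-33641348, minus strand, and its 156 capitals are exon bases of C130021I20Rik, a gene annotated as antisense. Shox2 is at chr3:66981772-66982021, minus strand, with TATAAA in capitals, beginning 203 bases before the start.
Prrx1: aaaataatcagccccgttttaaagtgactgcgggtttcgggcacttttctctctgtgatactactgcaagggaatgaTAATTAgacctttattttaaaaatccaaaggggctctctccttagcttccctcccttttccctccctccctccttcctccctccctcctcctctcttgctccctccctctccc
Lmx1b: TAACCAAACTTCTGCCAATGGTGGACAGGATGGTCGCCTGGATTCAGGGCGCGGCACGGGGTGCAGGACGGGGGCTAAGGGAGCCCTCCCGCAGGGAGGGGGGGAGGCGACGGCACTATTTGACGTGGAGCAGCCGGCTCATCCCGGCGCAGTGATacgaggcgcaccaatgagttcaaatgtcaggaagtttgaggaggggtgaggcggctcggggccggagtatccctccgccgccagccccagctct
Shox2: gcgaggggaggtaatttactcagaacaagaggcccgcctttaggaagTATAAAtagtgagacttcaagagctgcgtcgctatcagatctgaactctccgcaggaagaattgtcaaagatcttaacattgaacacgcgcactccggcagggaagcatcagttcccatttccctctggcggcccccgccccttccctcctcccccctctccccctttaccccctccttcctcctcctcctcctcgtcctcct

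Gene positions were taken from GENCODE M21 (GRCm38). Tbx15 is at chr3:99240381-99354259 on the plus strand, and Tbx18 at chr9:87702800-87731260 and Pitx1 at chr13:55825051-55836192 on the minus strand. Prrx1 spans chr1:163245119-163313710, Lmx1b chr2:33560965-33640511 and Shox2 chr3:66971727-66981771. Tbx2, Tbx3, Tbx4 and Tbx5 form 2 linked pairs described with their values below.

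Motifs were searched on both strands of the 250 bases upstream of 32851 RefSeq starts, 5 of them starts of the factors (Tbx4, Tbx18, Prrx1, Lmx1b and Shox2). Not all of these are the GENCODE starts. The RefSeq start of Tbx4 (85896765) lies inside the GENCODE gene, which begins at 85886422. That of Lmx1b (33641098) lies outside the GENCODE gene, which reaches 33640511. All 250 bases of the Tbx18 window are exon bases of D030062O11Rik. The T-box half-site AGGTGTGA (reverse complement TCACACCT) was in 1.12% of all windows and in 0 of the 5. TAATTA was in 4.84% and in 1 of the 5, Prrx1. The bicoid-type site TAATCC (reverse complement GGATTA), the kind of site that Pitx proteins bind, was in 6.25% and in 0 of the 5. TATAAA (reverse complement TTTATA) was in 12.4% and in 2, Tbx4 and Shox2. The windows also differed in CpG content, from 4 CpG in Prrx1 and 6 in Tbx4 to 11 in Shox2, 15 in Tbx18 and 19 in Lmx1b.

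Tbx15 was the most abundant factor in every group when levels were set per length, as CPM per kilobase of exon. Its level was 46.7 ± 1.21 (SD, 3 libraries) without surgery, 22.5 ± 0.234 in Luc and 30.6 ± 0.326 in PC2. In Non surgery it lay above 94.8% of all genes tested. Prrx1 came next in each group, at 6.53 ± 0.165, 15.3 ± 0.191 and 12.8 ± 0.49 CPM per kilobase. Lmx1b had the lowest mean in each group, at 0.246 ± 0.0129, 0.67 ± 0.128 and 0.705 ± 0.0111. In Luc its mean was barely below that of Tbx5 (0.671 ± 0.0171), and their libraries overlapped. In Non surgery Lmx1b lay above only 6.98% of genes tested.

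The order of the other genes per kilobase differed between groups. In Non surgery it ran from Tbx2 (5.02) and Shox2 (4.03) to Pitx1 (1.53), Tbx18 (1.06), Tbx3 (0.948), Tbx4 (0.699) and Tbx5 (0.317). Neighbours from Pitx1 down to Tbx4 overlapped between libraries, as did Tbx5 and Lmx1b. In Luc libraries Shox2 (9.32) stood above Tbx2 (6.15), followed by Pitx1 (5.13), Tbx18 (3.14), Tbx4 (1.38), Tbx3 (0.75) and Tbx5 (0.671). Only Lmx1b overlapped others there: Tbx5, and also Tbx3, whose highest value was 0.808 while Lmx1b reached 0.817 in Luc replicate 3. In PC2 libraries the order was Shox2 (11.4), Pitx1 (7.45), Tbx2 (6.73), Tbx18 (3.03), Tbx4 (1.85), Tbx5 (1.04) and Tbx3 (0.967), with overlap between Pitx1 and Tbx2 and between Tbx5 and Tbx3.

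Summed over the 10 genes, the level per kilobase was 64.6 to 69.1 in Non surgery, 64.1 to 65.8 in Luc and 76.2 to 77.1 in the PC2 libraries, so Non surgery and Luc overlapped while the makeup of the sum differed. Tbx15 made up 68.9%, 69.8% and 70.2% of the sum in the 3 Non surgery libraries, 34.0%, 34.9% and 35.0% in Luc and 40.6%, 39.9% and 39.6% in the PC2 group. The share of Prrx1 was 9.39% to 10.2%, 23.1% to 24.2% and 15.9% to 17.4%. The ratio of Tbx15 to Prrx1 per kilobase was 6.86 to 7.43 in Non surgery, 1.44 to 1.51 in Luc and 2.33 to 2.50 in the PC2 libraries, without overlap between groups.

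**Figure D1:**
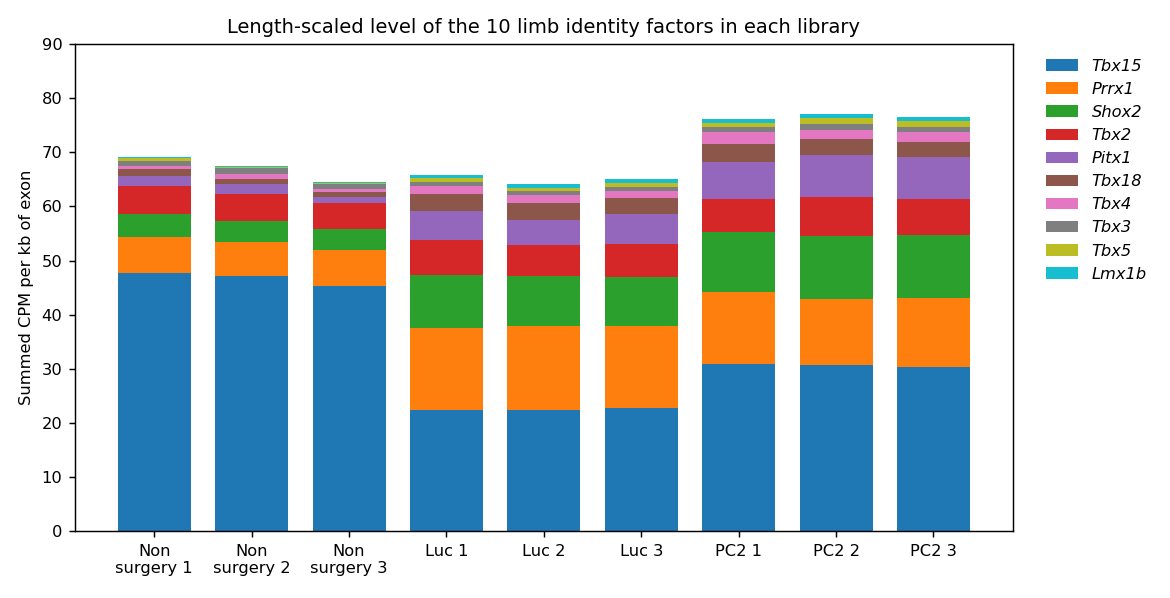
Stacked bars of the level of the 10 limb identity factors in CPM per kilobase of exon (y axis) in each of the 9 libraries (x axis), 1 colour per gene. The total was 64.1 to 69.1 in Non surgery and Luc libraries, while Tbx15 (lowest block) made up 68.9% to 70.2% of it in Non surgery and 34.0% to 35.0% in Luc.

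Between Luc and Non surgery all 10 factors passed the test (edgeR's quasi-likelihood test, Benjamini-Hochberg adjusted p under 0.05 over all genes tested), 8 higher and 2 lower. The same held for 58.8% of all genes tested (31.1% higher and 27.7% lower), so a pass in itself was common in this comparison. At least 2-fold differences were seen in 7 of the 10, 6 upward and Tbx15 downward, against 15.7% of all genes tested (9.43% higher and 6.32% lower). The median log2 fold change of the 10 was 1.15 against 0.02 over all genes tested. Libraries of the 2 groups did not overlap for 8 genes that were higher and 1 that was lower, against 33.1% and 29.8% of all genes tested. With library size scaling the count of 2-fold differences was again 7, but all 7 were upward, with Tbx4 (1.13) in and Tbx15 (-0.89) out. Without Non surgery replicate 3 it was 6, with Tbx5 out, and without Non surgery replicate 2 it was 7, with Tbx4 in place of Tbx5.

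The rises of the factors stood beside rises of the cartilage, bone, tendon cell and fibroblast lists given above. Relative to 1000 CPM of the fibroblast and synovium markers, 9 of the 10 factors were lower in every Luc library than in every Non surgery library, and Pitx1 overlapped. The same held for 93.8% of all genes tested, so on that scale nearly any gene was lower. Tbx2, Tbx4, Tbx5, Tbx18, Prrx1, Shox2 and Lmx1b, which rose by the test on CPM, thus had the opposite direction on it. The summed list weighs Col1a2, Col3a1 and Prg4 most, with means of 10199, 5976 and 5386 CPM in Luc of a mean sum of 27629. Single markers of the list rose by 0.91 (Pdgfrb) to 3.43 (Has1) on the log2 scale, and Prrx1 by 1.23. The direction can therefore depend on the markers chosen, and other choices were not tested. The part of the connective tissue lists in the rises was not tested.

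Between PC2 and Luc 7 factors passed, against 34.7% of all genes tested (16.1% higher and 18.6% lower): Pitx1, Tbx3, Tbx4, Tbx5, Tbx15 and Shox2 rose and Prrx1 fell. The fold changes were all below 2-fold, the highest being 0.63 on the log2 scale for Tbx5, while 3.31% of all genes tested passed with at least 2-fold. The median of the 10 was 0.33 on the log2 scale against 0.01 over all genes tested. Libraries did not overlap for 6 genes that were higher and 1 that was lower, against 23.3% and 24.7% of all genes tested. Leaving out PC2 replicate 3 lowered the count from 7 to 4, with Tbx3, Tbx4 and Tbx5 lost.

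**Figure D2:**
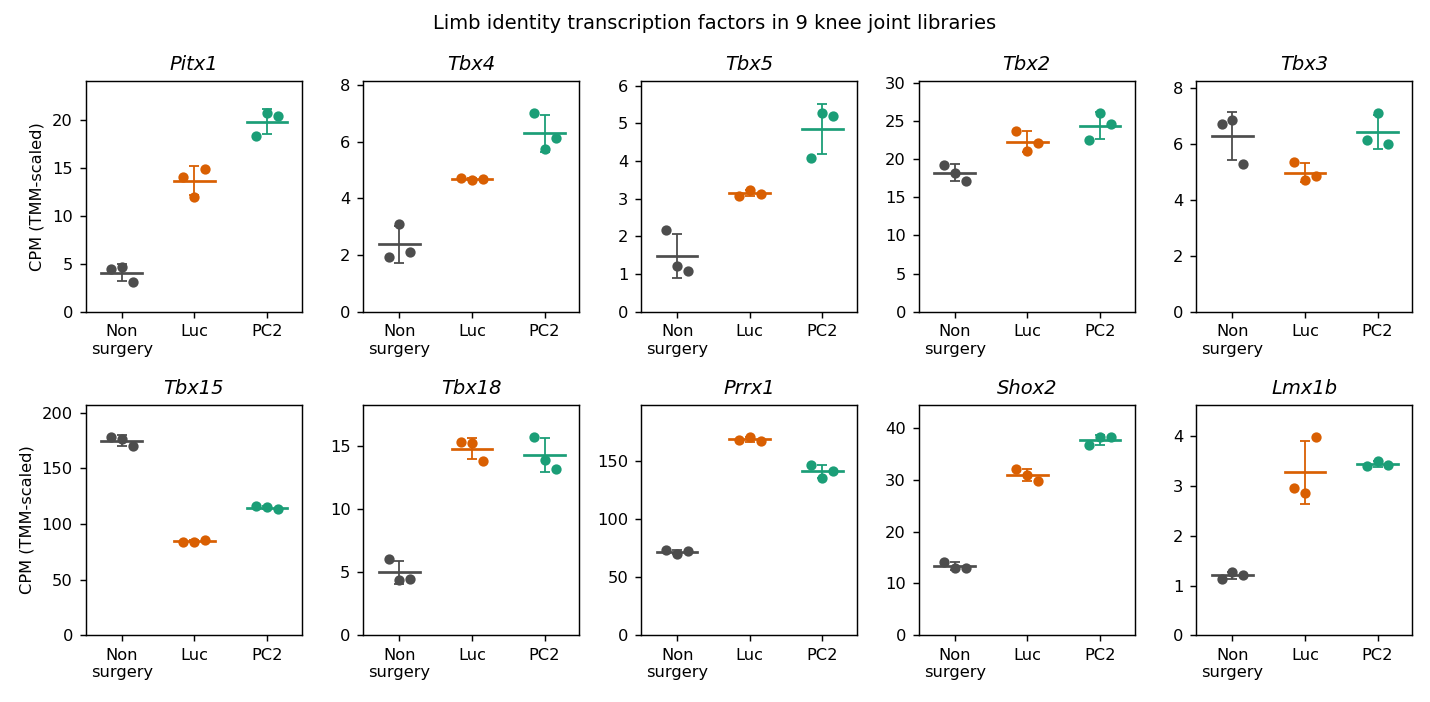
CPM (TMM-scaled, y axis, a separate scale for each gene) of the 10 limb identity factors in the 3 groups (x axis). Points are libraries, horizontal lines are group means and bars are SD (n = 3). Tbx15 was highest in Non surgery (170 to 178 CPM), whereas Pitx1, Tbx18, Prrx1, Shox2 and Lmx1b were each lower in all 3 Non surgery libraries than in the other 6.

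Pitx1, the hindlimb identity factor, rose the most of the 10 in Luc against Non surgery. It stood at 4.50, 4.66 and 3.06 CPM in the Non surgery libraries, at 14.0, 11.9 and 14.9 in Luc and at 18.3, 20.7 and 20.4 in the PC2 group. The 3 groups did not overlap and followed the order Non surgery, Luc, PC2. Luc was 3.33-fold above Non surgery (log2 fold change 1.74 ± 0.134 SE, adjusted p = 7.36e-09 by edgeR's quasi-likelihood test) and PC2 was 1.45-fold above Luc (0.54 ± 0.104, adjusted p = 0.000795). Relative to 1000 CPM of the fibroblast and synovium markers, Pitx1 was 0.451 to 0.625 CPM in Non surgery, 0.428 to 0.539 in Luc and 0.624 to 0.71 in the PC2 libraries, so Non surgery overlapped both other groups on that scale.

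Tbx4, the T-box factor of hindlimb outgrowth that acts with Pitx1, was at 1.92, 3.10 and 2.10 CPM in Non surgery, 4.73, 4.65 and 4.69 in Luc and 7.02, 5.73 and 6.14 in the PC2 libraries. All Luc libraries were above all Non surgery libraries, and all PC2 libraries above all Luc libraries. In Luc against Non surgery Tbx4 rose 1.97-fold (0.97 ± 0.177, adjusted p = 0.000163). In PC2 against Luc it rose 1.34-fold (0.42 ± 0.148, adjusted p = 0.0364), a call that was lost in DESeq2 (adjusted p = 0.0714) and when Luc replicate 1, 2 or 3 (0.0779, 0.0835 and 0.0825) or PC2 replicate 1 or 3 (0.152 and 0.0691) was left out. Per 1000 CPM of the fibroblast and synovium markers, Tbx4 was 0.263 to 0.417 CPM in Non surgery, 0.167 to 0.173 in Luc and 0.197 to 0.24 in the PC2 libraries, so its direction in Luc against Non surgery turned on that scale. The ratio of Pitx1 to Tbx4 per kilobase was 1.87 to 3.0, 3.29 to 4.06 and 3.34 to 4.62 in Non surgery, Luc and PC2 libraries.

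Tbx5, which starts the forelimb bud, was also counted in these hindlimb joints, with 18 to 36 reads per library in Non surgery, 58 to 61 in Luc and 78 to 104 in the PC2 group. Its levels were 2.16, 1.21 and 1.08 CPM in Non surgery, 3.07, 3.23 and 3.12 in Luc and 4.09, 5.28 and 5.19 in the PC2 libraries. The groups were again ordered without overlap. Tbx5 rose 2.12-fold in Luc against Non surgery (1.08 ± 0.235, adjusted p = 0.000829) and 1.55-fold in PC2 against Luc (0.63 ± 0.19, adjusted p = 0.0174). Without PC2 replicate 2 or 3 the second adjusted p was 0.0626 or 0.0582. Per 1000 CPM of the fibroblast and synovium markers, Tbx5 was 0.159 to 0.295 CPM in Non surgery, 0.112 to 0.116 in Luc and 0.139 to 0.181 in the PC2 libraries, lower in Luc than in Non surgery without overlap. Per kilobase, Tbx5 was below Tbx4 in all 9 libraries, at a ratio of 0.283 to 0.818 in Non surgery, 0.472 to 0.504 in Luc and 0.424 to 0.67 in the PC2 group.

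Tbx2 and Tbx3, repressors of the limb margins, had the smallest fold changes of the 10 in Luc against Non surgery. Tbx2 lies at chr11:85832551-85841948, with Tbx4 at chr11:85886422-85916097, 44.5 kb downstream. Tbx3 lies at chr5:119670669-119684724, with Tbx5 at chr5:119832668-119885219, 147.9 kb downstream (GRCm38, GENCODE M21), so that each margin factor is neighbour to a limb-type factor on the same strand. Tbx2 was at 19.3, 18.2 and 17.1 CPM in Non surgery, 23.8, 21.0 and 22.1 in Luc and 22.5, 26.1 and 24.6 in the PC2 libraries. It rose 1.22-fold in Luc against Non surgery (0.29 ± 0.077, adjusted p = 0.00396), with no overlap, but per 1000 CPM of the fibroblast and synovium markers it was 2.45 to 2.64 CPM in Non surgery and 0.754 to 0.867 in Luc. PC2 and Luc overlapped, and the difference did not pass (0.13, 95% interval -0.03 to 0.29, adjusted p = 0.19).

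Tbx3 was at 6.71, 6.84 and 5.29 CPM in Non surgery, 5.35, 4.71 and 4.85 in Luc and 6.13, 7.10 and 5.98 in the PC2 libraries. It fell 1.26-fold in Luc against Non surgery (-0.34 ± 0.135, adjusted p = 0.0412), although Non surgery replicate 3 lay below Luc replicate 1. It rose 1.29-fold in PC2 against Luc (0.37 ± 0.132, adjusted p = 0.0419) and did not differ detectably between PC2 and Non surgery (0.03, 95% interval -0.25 to 0.30, adjusted p = 0.868). Both calls were fragile. The fall was lost in DESeq2 (adjusted p = 0.0731), with library size scaling (-0.18, adjusted p = 0.263) and without Non surgery replicate 1 or 2, Luc replicate 2 or 3, or PC2 replicate 1 (0.116, 0.135, 0.111, 0.0903 and 0.0532). The rise was lost in DESeq2 (0.0876) and when Luc replicate 2 or 3, or else PC2 replicate 1, 2 or 3, was left out (0.119, 0.102, 0.0649, 0.165 and 0.0506).

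Within each linked pair the ratio of the limb-type factor to its neighbour was higher in Luc and PC2 than in Non surgery, a difference in ratio that was not tested. The ratio of Tbx4 to Tbx2 per kilobase was 0.106 to 0.182 in Non surgery, 0.212 to 0.236 in Luc and 0.234 to 0.333 in the PC2 libraries. The ratio of Tbx5 to Tbx3 was 0.25 to 0.455, 0.812 to 0.971 and 0.945 to 1.23. For both ratios Non surgery stood apart from the other groups, whose ranges overlapped each other.

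Tbx15 was the only factor to fall at least 2-fold in Luc against Non surgery, a size it did not reach with library size scaling (-0.89). It stood at 178, 176 and 170 CPM in Non surgery, 83.9, 83.8 and 85.4 in Luc and 116, 115 and 114 in the PC2 libraries, and no groups overlapped. It fell 2.07-fold in Luc against Non surgery (-1.05 ± 0.036, adjusted p = 1.32e-13) and rose 1.36-fold in PC2 against Luc (0.44 ± 0.036, adjusted p = 8.48e-08), and PC2 remained 1.52-fold below Non surgery (-0.61 ± 0.035, adjusted p = 1.51e-10). Muscle markers mostly moved beside it. All 12 genes of the fast list and all 8 of the slow list fell in Luc against Non surgery (medians -1.20 and -3.55), against 27.7% of all genes tested. In PC2 against Luc 9 of 12 and 5 of 8 rose and 1 of each list fell (medians 0.21 and 0.38). Over all genes tested 16.1% rose and 18.6% fell there. Adipocyte markers moved with Tbx15 only in part. In Luc against Non surgery 5 of 9 fell (median -0.19), while 2 rose, Adipoq (0.76) and Plin1 (1.20). In PC2 against Luc 8 of 9 rose (median 0.67), against 16.1% of all genes tested. In PC2 against Non surgery 7 rose and 1 fell (median 0.51), whereas Tbx15 fell. The list summed to 802 to 813 CPM in Non surgery, 512 to 550 in Luc and 1493 to 1506 in the PC2 libraries. Scd1 was its largest part, with means of 442, 217 and 1009 CPM. No gene of these lists was at 0, and their part in the Tbx15 result was not tested. Per 1000 CPM of the fast muscle list, Tbx15 was 2.41 to 2.56 CPM in Non surgery, 2.91 to 2.98 in Luc and 3.45 to 3.50 in the PC2 libraries, so on that scale it was lowest in Non surgery. Against the slow list, the values were 63.5 to 64.2, 210.2 to 210.6 and 188.1 to 197.8. The largest part of that list was Myh2 in Non surgery (2156 CPM of a mean sum of 2746) but Atp2a2 in Luc (209 of 401). These last values therefore were not read as a comparison with slow fibres.

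Tbx18, the closest relative of Tbx15 in this set and a gene also known from pericytes, went the other way. Its levels were 6.05, 4.43 and 4.51 CPM in Non surgery, 15.3, 15.3 and 13.8 in Luc and 15.8, 13.9 and 13.2 in the PC2 libraries. It rose 2.97-fold in Luc against Non surgery (1.57 ± 0.119, adjusted p = 5.66e-09), while PC2 and Luc overlapped (-0.05, 95% interval -0.26 to 0.16, adjusted p = 0.724). Of 10 mural and smooth muscle markers, 4 rose and 3 fell in Luc against Non surgery (median -0.02), near the 31.1% and 27.7% of all genes tested. Their summed level was 2116 to 2191 CPM in Non surgery, 1154 to 1160 in Luc and 1432 to 1445 in the PC2 libraries. Des was the largest part of it, with means of 1580 CPM in Non surgery and 553 in Luc. The fall of the sum, and any ratio to it, thus follows Des more than the list as a whole. Per 1000 CPM of that list, Tbx18 was 2.02 to 2.86, 12.0 to 13.2 and 9.23 to 10.9 CPM in Non surgery, Luc and PC2. Set against the fibroblast and synovium list instead, it was 0.594 to 0.829, 0.502 to 0.56 and 0.459 to 0.538 CPM.

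Prrx1, the general marker of limb bud mesenchyme, stood at 73.5, 70.2 and 73.1 CPM in Non surgery, 168, 172 and 168 in Luc and 147, 136 and 142 in the PC2 libraries. No groups overlapped, and Luc was highest. Prrx1 rose 2.34-fold in Luc against Non surgery (1.23 ± 0.039, adjusted p = 6.54e-14) and fell in PC2 against Luc by 0.26 ± 0.038 on the log2 scale (adjusted p = 6.44e-05), the only one of the 10 to fall there. In that comparison 8 of the 14 fibroblast and synovium markers fell and 5 rose, with a median of -0.13. Over all genes tested 18.6% fell and 16.1% rose, so the list moved in both directions more often than genes at large. Its part in the fall of Prrx1 was not tested. Per 1000 CPM of those markers, Prrx1 was 9.41 to 10.8 CPM in Non surgery, 6.07 to 6.15 in Luc and 4.66 to 5.0 in the PC2 libraries.

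Shox2, the proximal limb factor, had nearly the same rise as Prrx1 in Luc against Non surgery but went the other way in PC2 against Luc. It was at 14.2, 12.9 and 13.0 CPM in Non surgery, 32.1, 30.8 and 29.7 in Luc and 36.6, 38.2 and 38.3 in the PC2 libraries, again with no overlap. Its rise was 2.31-fold in Luc against Non surgery (1.21 ± 0.063, adjusted p = 4.29e-11), and it rose a further 1.22-fold in PC2 against Luc (0.29 ± 0.056, adjusted p = 0.000804). Set against 1000 CPM of the fibroblast and synovium markers, Shox2 was 1.74 to 1.94 CPM in Non surgery, 1.08 to 1.17 in Luc and 1.25 to 1.33 in the PC2 libraries, so on that scale it was highest in Non surgery. All 12 cartilage markers rose in PC2 against Luc, with a median of 0.82, against 16.1% of all genes tested. They summed to 4900 to 4995 CPM in Luc and 7832 to 7964 in the PC2 libraries. Other lists rose there as well, such as 8 of 9 adipocyte markers, while of 14 fibroblast and synovium markers 8 fell and 5 rose. The part of these lists in the Shox2 result was not tested.

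Lmx1b, the dorsal factor, was the scarcest per kilobase by group mean. It had 19 to 22 reads per library in Non surgery, 54 to 74 in Luc and 65 to 69 in the PC2 group. It stood at 1.14, 1.26 and 1.20 CPM, at 2.96, 2.85 and 3.99, and at 3.40, 3.50 and 3.41 in these groups. All Non surgery libraries were below all others, and the PC2 libraries lay within the Luc range. Lmx1b rose 2.71-fold in Luc against Non surgery (1.44 ± 0.208, adjusted p = 1.58e-05), and the difference between PC2 and Luc did not pass (0.07, 95% interval -0.29 to 0.44, adjusted p = 0.772). Relative to 1000 CPM of the fibroblast and synovium markers, Lmx1b was 0.156 to 0.177 CPM in Non surgery, 0.102 to 0.145 in Luc and 0.116 to 0.12 in the PC2 libraries, again lower in Luc than in Non surgery without overlap.

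PC2 against Non surgery shares its libraries with both comparisons above and adds no independent evidence. There 8 factors rose, 1 fell and Tbx3 did not pass, against 62.7% of all genes tested that passed (31.5% higher and 31.2% lower). Libraries did not overlap for 8 genes that were higher and 1 that was lower, against 33.5% and 32.5% of all genes tested. A rise of at least 2-fold was seen in 6, against 9.83% of genes tested: Pitx1 (4.84-fold), Tbx5 (3.27-fold), Tbx18 (2.86-fold), Lmx1b (2.85-fold), Shox2 (2.82-fold) and Tbx4 (2.64-fold). Prrx1 rose 1.96-fold and Tbx2 1.34-fold.

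**Figure D3:**
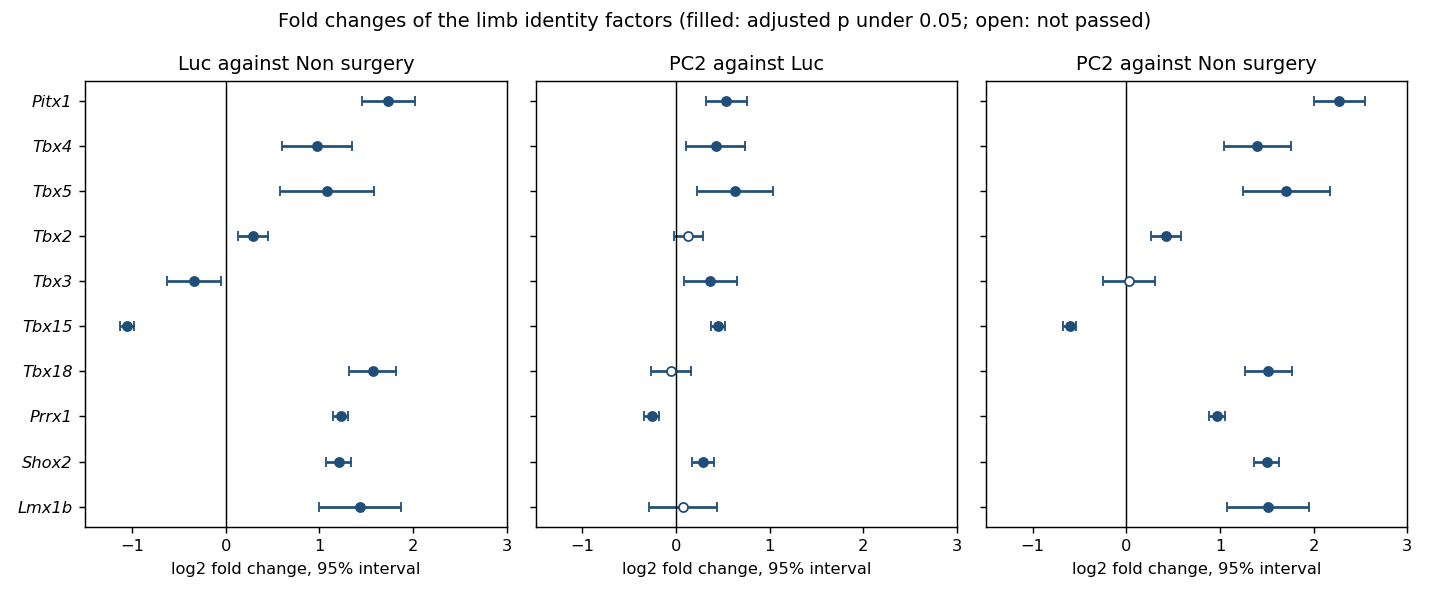
Log2 fold changes of the 10 limb identity factors (x axis) with 95% intervals in the 3 comparisons (panels). Filled points passed an adjusted p of 0.05 in edgeR's quasi-likelihood test and open points did not. Tbx15 lies at -1.05 in Luc against Non surgery and 0.44 in PC2 against Luc, and Prrx1 at 1.23 and -0.26.

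Genes that overlap the factors or start within 20 kb of their ends were examined because reads in shared exons stay unassigned in HTSeq unless strand separates them, and the sources used here do not say whether strand was used. There were 18 such genes, of which 5 shared exon bases with 4 of the factors: Tbx18 (20.6% of its exon bases), Pitx1 (10.3%), Shox2 (4.62%) and Tbx3 (1.74%). Levels of those 4 may be undercounted for this reason. Without strand, reads of a gene and of its antisense partner cannot be told apart. Of the 18, 5 had enough reads to be tested.

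C130021I20Rik, an antisense gene that starts 95 bases upstream of the RefSeq start of Lmx1b, moved as Lmx1b did. It had 24, 25 and 25 reads in Non surgery, 91, 102 and 114 in Luc and 115, 101 and 105 in the PC2 libraries. All Non surgery libraries were below the others. The gene rose in Luc against Non surgery (1.89 ± 0.172, adjusted p = 6.14e-08) and did not pass in PC2 against Luc (0.03, adjusted p = 0.868). Its first exon bases are the capitals in the Lmx1b sequence printed above.

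Rsrc1, a protein-coding gene that overlaps the start of Shox2 on the opposite strand, had 437, 477 and 413 reads in Non surgery, 677, 695 and 715 in Luc and 717, 703 and 677 in the PC2 libraries. It rose less than Shox2 in Luc against Non surgery (0.49 ± 0.057, adjusted p = 1.12e-06), a difference between genes that was not tested, and did not pass in PC2 against Luc (-0.02, adjusted p = 0.788). Gm47071, which overlaps Pitx1 on the opposite strand, stayed between 110 and 138 reads in all 9 libraries and passed in neither comparison (-0.03, adjusted p = 0.815, and 0.04, adjusted p = 0.805). Tbx3os1, antisense to Tbx3, had 9 to 36 reads and passed in neither (adjusted p = 0.828 and 0.214). 2610027K06Rik, upstream of Tbx2 on the opposite strand, had 23 to 44 reads and rose in PC2 against Luc (0.67 ± 0.223, adjusted p = 0.0292).

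**Figure D4:**
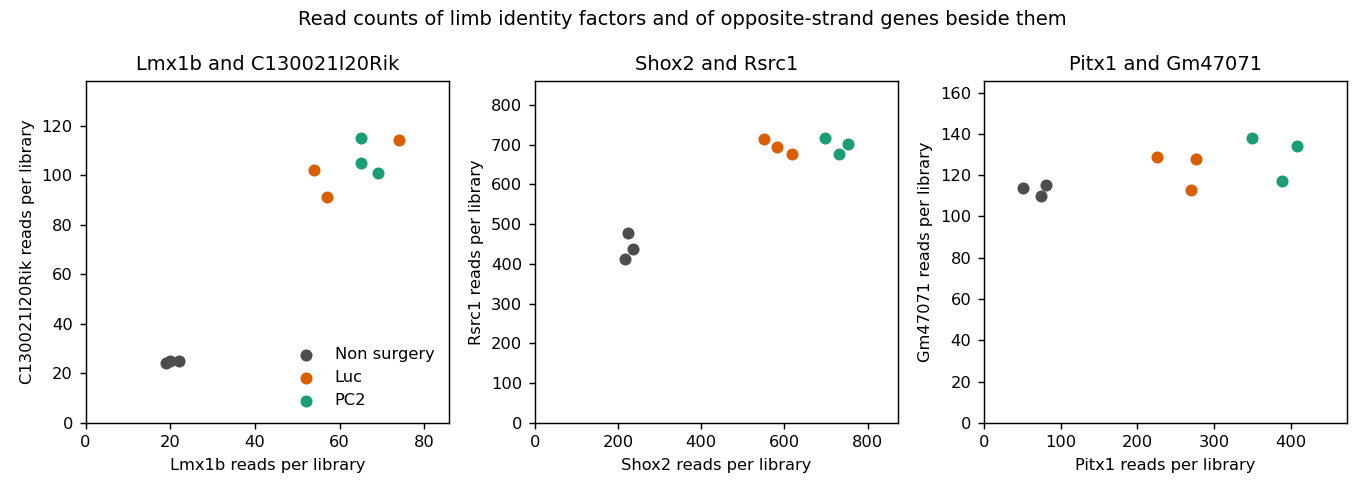
Reads per library of 3 limb identity factors (x axis) and of the gene on the opposite strand beside each (y axis), with 1 point per library coloured by group. C130021I20Rik separated Non surgery (24 to 25 reads) from the other libraries along with Lmx1b, whereas Gm47071 stayed at 110 to 138 reads while Pitx1 ranged from 51 to 408.

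Of 68 other genes of limb patterning in 4 lists, 51 were tested. Among 28 further limb transcription factors, 25 were tested, and 17 rose and 3 fell in Luc against Non surgery, with a median log2 fold change of 0.96. Over all genes tested 31.1% rose, 27.7% fell and the median was 0.02. Osr2, a factor of joint formation, rose from 3.17 ± 0.31 to 21.3 ± 0.913 CPM (2.74 ± 0.108, adjusted p = 1.02e-12), and Gli1, a target of hedgehog signalling, from 5.33 ± 0.219 to 22.9 ± 1.06 (2.10 ± 0.079, adjusted p = 5.41e-13). Zbtb16, a zinc finger factor needed for hindlimb patterning, fell from 129.2 ± 6.95 to 17.8 ± 3.13 CPM (-2.86 ± 0.084, adjusted p = 2.05e-14). In PC2 against Luc 9 of the 25 rose and 2 fell, with a median of 0.17, against 16.1%, 18.6% and 0.01 over all genes tested. Dlx5, a factor of limb and skeleton, rose from 17.7 to 27.5 CPM (0.63 ± 0.079, adjusted p = 1.23e-05). Dlx6 (0.68, adjusted p = 0.0204) and En1, the ventral limb factor (0.74, adjusted p = 0.0332), were less secure: Dlx6 was lost with Luc replicate 2 or PC2 replicate 2 left out (0.0928 and 0.107), and En1 with Luc replicate 3, or else PC2 replicate 1 or 2, left out (0.143, 0.0708 and 0.128).

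Signals of the limb bud and their regulators were tested for 14 of 20 genes. Fgf4, Fgf8, Wnt3, Wnt7a, Shh and Sp8 were not tested, since they had few or no reads. Fgf8 and Sp8 had none in any library, and the highest group mean among these genes was 0.0983 CPM (Shh in Non surgery). Of the 14 tested, 12 rose and 1 fell in Luc against Non surgery, with a median of 0.74. Over all genes tested 31.1% rose and 27.7% fell there. Dkk1, a Wnt inhibitor, rose from 1.91 ± 0.178 to 10.4 ± 0.755 CPM (2.44 ± 0.126, adjusted p = 3.62e-11) and Rspo2, which amplifies Wnt signals, from 5.08 ± 0.677 to 22.4 ± 1.13 (2.14 ± 0.093, adjusted p = 3.80e-12). Gdf5, the joint-forming growth factor, was near 1.01 CPM in Luc and 0.237 in Non surgery (2.06 ± 0.441, adjusted p = 0.000746). In PC2 against Luc 4 rose and 4 fell, with a median of -0.002, against 16.1% higher and 18.6% lower over all genes tested. Rspo2 rose again (0.61 ± 0.072, adjusted p = 7.22e-06), as did Fgf10, a mesenchymal growth factor of limb outgrowth (0.88 ± 0.23, adjusted p = 0.00744), and Aldh1a2, which makes retinoic acid, fell (-0.61 ± 0.137, adjusted p = 0.00252).

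Homeobox relatives of Pitx1, Prrx1 and Lmx1b, 7 tested of 9, moved in both directions in Luc against Non surgery, where 4 rose and 2 fell with a median of 0.91. Over all genes tested 31.1% rose and 27.7% fell, and the 2 falls are near that share. Prrx2, the paralog of Prrx1, rose from 2.17 ± 0.428 to 9.47 ± 0.421 CPM (2.12 ± 0.154, adjusted p = 3.22e-09). Lmx1a, the paralog of Lmx1b, rose from 0.258 to 1.02 CPM (1.97 ± 0.423, adjusted p = 0.000765), and Lhx2 from 0.299 to 1.04 (1.79 ± 0.434, adjusted p = 0.00204). In PC2 against Luc 0 of the 7 passed in edgeR's test or in DESeq2, with 1 of 7 under an unadjusted p of 0.05 in edgeR.

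The other T-box genes were tested for 5 of 11, since the rest had few or no reads. In Luc against Non surgery 0 of the 5 passed in edgeR's test or in DESeq2, and 0 were under an unadjusted p of 0.05, with a median of -0.03 that became 0.13 with library size scaling. In PC2 against Luc Mga, a large T-box protein of a repressor complex, fell from 88.8 ± 2.66 to 53.9 ± 3.53 CPM (-0.72 ± 0.053, adjusted p = 3.57e-08) and Tbx6 rose (0.55 ± 0.119, adjusted p = 0.00193). Tbx1 fell (-0.66 ± 0.22, adjusted p = 0.0289), a call lost when Luc replicate 2 or 3, or else PC2 replicate 2 or 3, was left out (adjusted p = 0.0525, 0.139, 0.123 and 0.0688).

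In PC2 against Non surgery, which reuses libraries of the comparisons above, 19 of the 25 limb transcription factors rose and 2 fell, as did 11 and 1 of the 14 signals, 5 and 2 of the 7 homeobox relatives and 1 and 2 of the 5 other T-box genes. Over all genes tested 31.5% rose and 31.2% fell, and the counts of the other T-box genes and the falls among the homeobox relatives are near those shares. The medians were 1.09, 0.96, 1.18 and 0.08, against 0.01 over all genes tested. Osr2 (2.61), Gli1 (2.46), Rspo2 (2.74), Dkk1 (2.42), Fgf10 (1.52), Prrx2 (2.18) and Lhx9 (1.47) rose and Zbtb16 (-2.40) and Mga (-0.76) fell on the log2 scale. Pitx3 fell (-1.01), a call lost without Non surgery replicate 1 or PC2 replicate 1 (adjusted p = 0.061 and 0.0826). Tbx1 fell (-0.69), lost without Non surgery replicate 1 or PC2 replicate 2 (0.0923 and 0.0617). Tbx6 rose (0.33), lost in DESeq2 (0.0556) and without Non surgery replicate 1 or PC2 replicate 2 or 3 (0.125, 0.0725 and 0.0994).

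**Figure D5:**
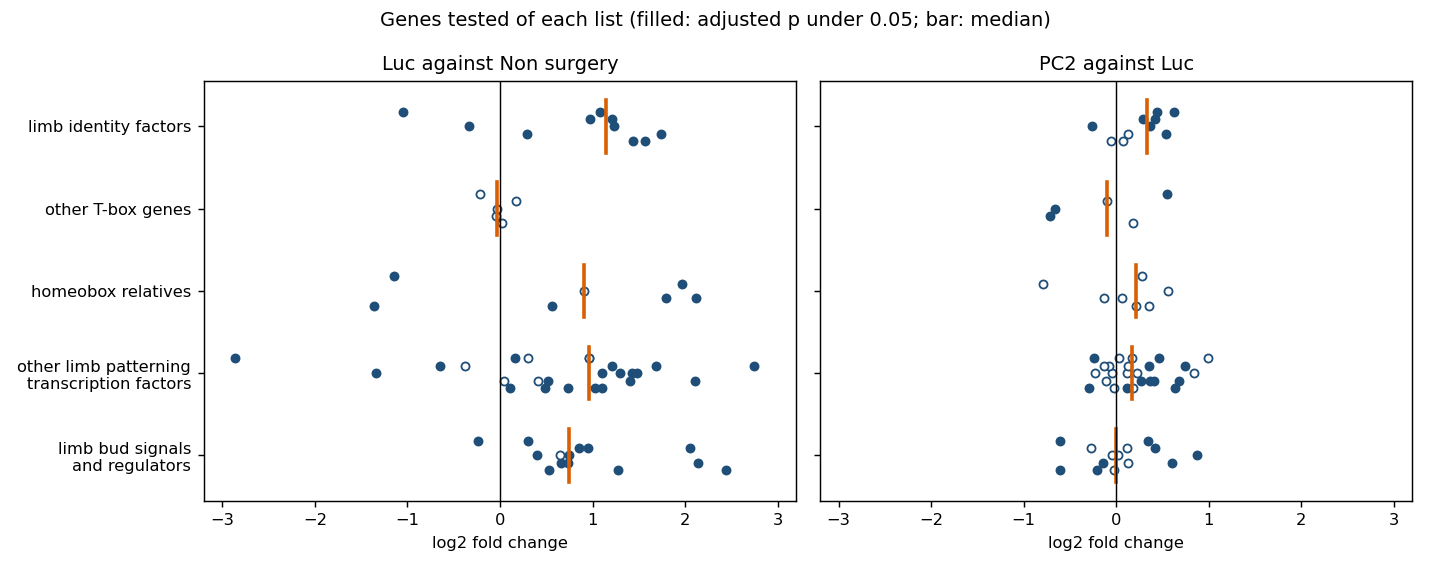
Log2 fold changes (x axis) of the tested genes of 5 lists (y axis) in Luc against Non surgery (left) and PC2 against Luc (right). Filled points passed an adjusted p of 0.05, open points did not, and vertical bars are medians. The median of the limb identity factors was 1.15 on the left and 0.33 on the right, and that of the other T-box genes -0.03 and -0.10.

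Genes with the pattern most like the 4 most abundant factors were found as those with the smallest Euclidean distance over the 3 log2 fold changes, among 11541 protein-coding genes with a mean of at least 5 CPM over the libraries. For Tbx15 they were Tmem246 (distance 0.0103), Rragd (0.0371) and Osbpl6 (0.043), and 13 genes lay within 0.1. For Prrx1 they were Lama4 (0.0297), Ccn4 (0.0338) and Cldn5 (0.0412), with 12 genes within 0.1. For Shox2 they were Glt8d2 (0.00684), P3h1 (0.0295) and Spaca6 (0.0396), also with 12 genes. For Tbx2, which changed little, Wrnip1 (0.00888), Rpl21 (0.0091) and Acd (0.0134) led a much larger group of 195 genes.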

How the data were processed

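RNA of knee joints was extracted with TRIzol and made into libraries with a NEBNext Ultra kit, per the labels' protocols, and the submitters' processing notes name HISAT2, HTSeq, DESeq2 and mm10 without versions or roles. Each deposited table held the untransformed read count of every Ensembl gene ID for 1 library. Its 5 summary lines were left out of totals and of all tests; reads that HTSeq could not assign to 1 gene came to 5.72% to 6.65% of all reads listed, and reads outside genes to 7.29% to 9.25%. Symbols and exon lengths came from GENCODE M21 (GRCm38), which lacked 105 IDs.

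Genes kept by filterByExpr (minimum count 10) were tested with edgeR 4.0.16 (quasi-likelihood, TMM factors, all 9 libraries in 1 fit, two-sided, Benjamini-Hochberg over all 17478 genes tested), and a gene rose or fell at an adjusted p under 0.05. SE came from the F statistic and intervals are 95%. DESeq2 1.42.0, in R 4.3.3, was an alternative. The procedure was tested on simulated counts with known fold changes. Libraries of a group differed by more than sampling noise (chi-square per degree of freedom 3.94 to 8.67), so each counted as 1 library, and the number of reads limits the scarce genes.

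The genes and lists were chosen with earlier results of these data known. Named from each pathway list were up to 3 genes with the largest passing fold change per comparison and at least 1 CPM in the higher group. Alternatives were other scaling, no count filter, fits of only 2 groups, a replicate block and leaving out each library. Replicate numbers did not pair the libraries.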

Additional observations from a re-analysis of the deposited data

How the results depend on the processing

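Apart from leaving out libraries, 7 other settings were applied to the 30 fold changes of the 10 factors, and 206 of the 210 values kept their direction and their side of the threshold. The other 4 concerned Tbx3 and Tbx4 and are given in the report with their values; none changed direction in a call. Scaling by library size alone moved the median log2 fold change over all genes in Luc against Non surgery from 0.02 to 0.19, and in PC2 against Non surgery from 0.01 to 0.17. It moved the genes changed at least 2-fold from 1648 higher and 1104 lower to 2065 and 824, and from 1718 and 1142 to 2122 and 834. Tbx15 still fell with it, by 0.89 and so by less than 2-fold, and Tbx2 rose by 0.45 in Luc against Non surgery. A scaling that left out muscle and mitochondrial genes, chosen after seeing the data, kept the counts of factors that passed at 10, 7 and 9 in Luc against Non surgery, PC2 against Luc and PC2 against Non surgery. DESeq2 gave 9, 5 and 9.

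With 1 library left out at a time, the factors that passed numbered 9 to 10, 4 to 7 and 9 to 9, and the genes changed at least 2-fold 2770 to 2841, 557 to 634 and 2834 to 2967. The lowest count of 4 came without PC2 replicate 3. Of 270 such fold changes of the factors, 253 kept their call and 17 lost it, all of them of Tbx3, Tbx4 or Tbx5.

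With the replicate number as a block the factors that passed were 10, 7 and 9 and the genes changed 2744, 577 and 2852. Libraries with the same number showed no pairing (correlation of their deviations -0.03 to 0.06, with 0 of 9 over 0.1). Depth limits Lmx1b, Tbx5 and Tbx4 most, at 18 to 134 reads per library.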
